A study of Ovis aries with 30 samples.

Results

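Cholesterol is built from acetyl-CoA by a chain of enzymes, and cells adjust that chain, together with sterol uptake, storage and export, through a small set of sensors and transcription factors. The genes described here are 29 of 31 listed genes of this system, taken by symbol from the 28524 genes of the count table whatever their values. The other two, IDI1 and CYP51A1, had no row under their symbols and were not analysed here. One row, LOC101108851, carried the gene number that RefSeq gives to IDI1, and it was kept outside the list. The 30 libraries came from 15 newborn Romney lambs, 1 lamb per ewe from twin births, each giving perirenal brown adipose tissue (BAT) and thyroid. In the cold group 6 lambs were kept at 4 °C for 2 days, in the AT group 6 lambs were kept at an ambient 20 to 22 °C for 2 days, and 3 control lambs were collected about a day after lambing. The treated lambs were therefore 2 days older than the controls, so age and treatment cannot be told apart in any comparison with control. Cold against AT is the comparison made at 1 age. The control lamb with replicate number 2 (control 2) was left out of the tests, which leaves 2 controls, and its values are given beside those of the genes called against control.

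Cells make cholesterol through the mevalonate pathway, then squalene and lanosterol. When sterol falls in the endoplasmic reticulum, SCAP escorts SREBP-2, the product of SREBF2, to the Golgi, where it is cut and released to switch on the genes of synthesis. The INSIG proteins hold SCAP back when sterol is plentiful. Oxysterols that build up with cholesterol activate the liver X receptors LXRα (NR1H3) and LXRβ (NR1H2), whose targets include the exporters ABCA1 and ABCG1 and the ubiquitin ligase MYLIP, which lowers uptake receptors.

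The BAT libraries held 31556500 to 37025998 counts each and the thyroid libraries 25062784 to 30124871. In BAT, 43.8 to 76.5% of these lay in a pair of genes, LOC114112617 and LOC114115287, against 5.18 to 27.8% in thyroid, which left 8093700 to 18276329 counts outside the pair in BAT and 18098434 to 26929601 in thyroid. The 29 genes together took 8388 to 21526 counts per BAT library and 23207 to 32404 per thyroid library. Each tissue carried its defining markers: UCP1, the BAT uncoupling protein, lay between 324 and 35895 normalized counts in BAT and between 1.8 and 216 in thyroid, and TG, the thyroid hormone precursor, between 15.5 and 1845.5 in BAT and between 785581 and 3395402 in thyroid. Several libraries stood apart in markers of other cells. The summed skeletal muscle markers reached 2839171 normalized counts in thyroid AT 3 and 244113 in thyroid control 1, against at most 3298 in the other thyroid libraries. Adrenal cortex markers reached 2747 in BAT of control 2 (33.3 to 870.1 in the other BAT libraries), parathyroid markers reached 9217 in its thyroid (at most 1253 elsewhere), and macrophage markers reached 11561 in BAT cold 4 (at most 5139 in the other BAT libraries). The adrenal sum rested mainly on STAR, at up to 1422 in the 14 BAT libraries without control 2, on a scale common to both tissues. There the other adrenal markers stayed low, with CYP17A1 at up to 29.9 and CYP11A1 at up to 4.99. In whole tissue, fewer cells of a type and less RNA per cell cannot be told apart.

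The LXR genes NR1H3 and NR1H2 and the lysosomal carrier NPC2 were among the 4 most abundant of these mRNAs in both tissues. Levels between genes are given as normalized counts per kb of gene length on a scale common to both tissues, as mean ± SD over the 14 libraries of a tissue. In BAT, NR1H3 stood first at 1573.5 ± 421 per kb. NPC2, which binds cholesterol in the lysosome, was at 732 ± 183, MYLIP at 680.0 ± 148, NR1H2 at 611 ± 111 and NPC1, the membrane protein that takes cholesterol from NPC2, at 543.5 ± 299. FDPS, which makes farnesyl diphosphate, was the most abundant of the synthesis enzymes in BAT at 460.4 ± 97.9 per kb. The lowest BAT levels were those of SOAT1, which esterifies cholesterol for storage, at 36.7 ± 5.87 and of DHCR7, which catalyses the last step of one branch of synthesis, at 33.5 ± 11.7 per kb. Of the 28 pairs of neighbours in the BAT order, 27 lay within 1 SD of each other, and NR1H3 over NPC2 was the exception.

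In thyroid the order was led by NPC2 at 1084 ± 224 per kb, NR1H2 at 844 ± 141, NR1H3 at 496 ± 102 and FDFT1, the squalene synthase, at 490.2 ± 73.8. The lowest thyroid levels were PMVK, a kinase of the mevalonate pathway, at 47.8 ± 22.3, INSIG1 at 43.1 ± 23.1 and STARD4, a carrier that moves cholesterol between membranes, at 39.7 ± 16.1 per kb. Of 28 neighbouring pairs, 24 lay within 1 SD, the exceptions being NPC2 over NR1H2, NR1H2 over NR1H3, ACAT2 over EBP and MSMO1 over SC5D. INSIG1 thus ranked 10th in BAT and 28th in thyroid, and the exporter ABCG1 ranked 7th and 26th.

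**Figure D1:**
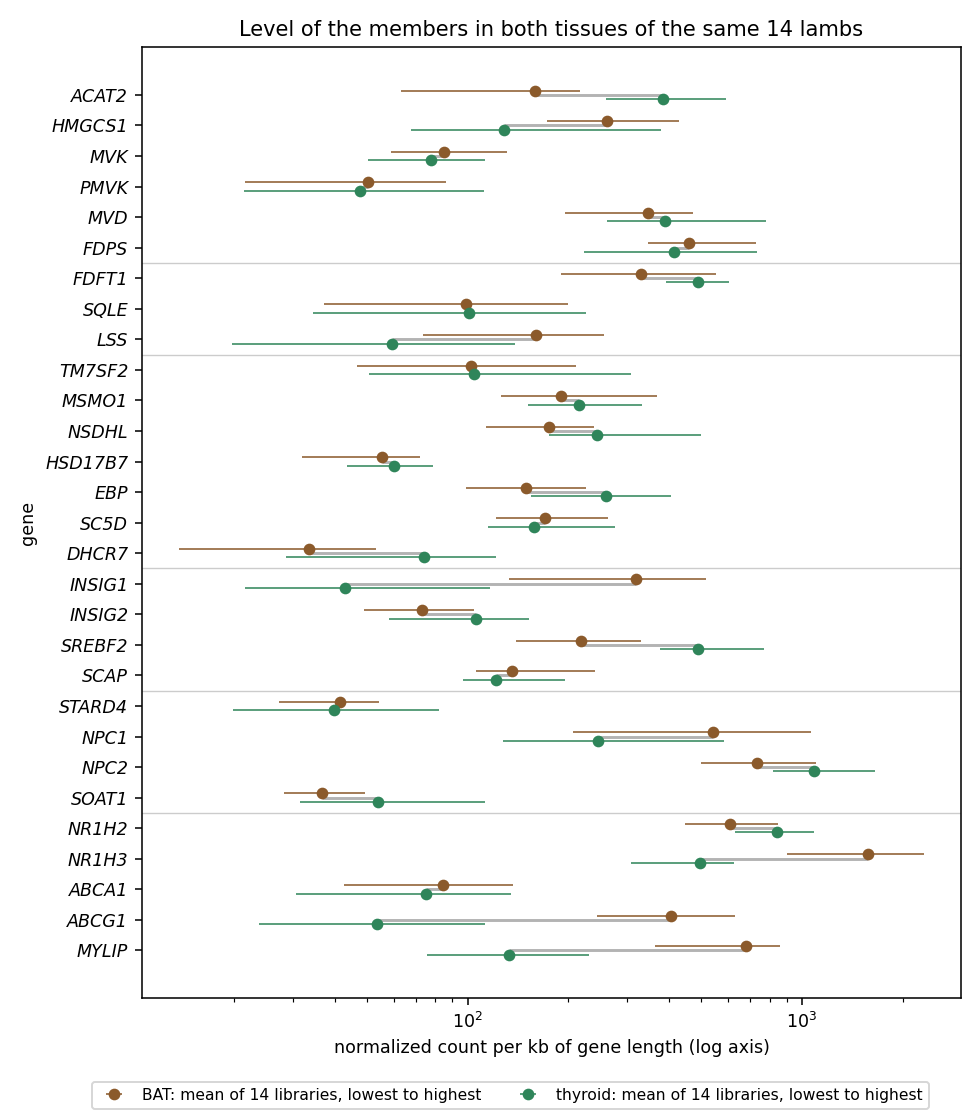
Normalized counts per kb of gene length (log axis) for the 29 genes in BAT and thyroid, with points at the mean and lines from the lowest to the highest of 14 libraries per tissue. INSIG1, NR1H3, ABCG1 and MYLIP were higher in BAT and ACAT2 and SREBF2 higher in thyroid without any overlap of libraries. The share of all genes separated in this way was not computed.

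The feedback protein INSIG1 and 3 of the 5 LXR and efflux genes (ABCG1, NR1H3 and MYLIP) were higher in BAT than in thyroid, and SREBF2 itself and ACAT2, which condenses acetyl-CoA at the head of the mevalonate pathway, were lower. INSIG1, ABCG1, NR1H3, MYLIP, ACAT2 and SREBF2 differed in all 3 treatments by edgeR's quasi-likelihood test with Benjamini-Hochberg adjustment. They had no overlap between the 14 libraries of each tissue. The share of all genes without such overlap was not computed, and 63.8% of all genes were called between the tissues in AT. On the common scale, INSIG1 had a lowest, median and highest normalized count of 379, 943 and 1471 in BAT and 61.7, 111 and 333 in thyroid. ABCG1 had 1315, 2164 and 3413 in BAT and 128, 257 and 607 in thyroid. Both were higher in BAT in 14 of 14 lambs. NR1H3 ranged over 1979, 3379 and 5090.1 in BAT and 677, 1174 and 1373 in thyroid, and MYLIP over 1103, 2098 and 2614 against 230.4, 409 and 703. ACAT2 ranged over 96.2, 253 and 330.4 in BAT and 395, 567 and 898 in thyroid. SREBF2, which encodes the main transcription factor of the pathway, ranged over 732, 1127 and 1729 in BAT and 1967, 2363 and 4047 in thyroid. Both were lower in BAT in 14 of 14 lambs.

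The difference between BAT and thyroid (log2FC ± SE) for INSIG1 was 2.79 ± 0.36 in AT, 2.86 ± 0.37 in cold and 3.35 ± 0.65 in control. For ABCG1 it was 3.31 ± 0.26, 3.10 ± 0.26 and 1.55 ± 0.42, and for NR1H3 1.77 ± 0.21, 1.68 ± 0.21 and 1.28 ± 0.36. MYLIP differed by 2.42 ± 0.24, 2.29 ± 0.24 and 2.35 ± 0.41. ACAT2 was lower in BAT at -1.06 ± 0.18, -1.27 ± 0.18 and -2.25 ± 0.32, and SREBF2 at -1.27 ± 0.18, -1.09 ± 0.18 and -1.07 ± 0.32. The weakest of these calls were SREBF2 (edgeR adjusted p = 0.00958) and NR1H3 (adjusted p = 0.00683), both in control. The control calls rest on 2 lambs. Without control 3, SREBF2 in control was at -0.19 (adjusted p = 0.795). NR1H3 in control was at 0.61 (adjusted p = 0.157) with all 3 controls and was not called without control 1 (1.22) or control 3 (1.34). INSIG1 (2.34) and ABCG1 (1.11) in control were not called without control 1.

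Over the whole list, 14 of 29 genes differed between the tissues in AT, 6 higher and 8 lower in BAT, where 63.8% of all 17021 tested genes differed (43.6% higher and 20.2% lower). In cold, 15 differed, 7 higher and 8 lower, against 63.5% of all genes (42.3% higher and 21.2% lower). In control, with 2 lambs, 11 differed, 4 higher and 7 lower, against 36.4% (18.7% higher and 17.7% lower). The common scale shifted the median of all genes by 0.35 (log2) toward BAT in AT and by 0.33 in cold. With TMM size factors, which brought these medians to 0.08 and 0.12, the calls among the 29 were 6 higher and 13 lower in AT, 6 and 10 in cold, and 5 and 8 in control. Of all genes, 34.1% were then higher and 29.1% lower in AT, 35.5 and 27.9% in cold, and 20.8 and 19.9% in control.

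For several other genes the tissue difference passed the threshold in some treatments, and whether it differed between treatments was tested separately. DHCR7 was lower in BAT in AT (log2FC -1.49 ± 0.32, edgeR adjusted p = 0.000232) and in control (-1.71 ± 0.56, adjusted p = 0.018). The control value became -1.42 (adjusted p = 0.110) with the lamb as a block and -0.02 (adjusted p = 0.988) without control 3, and in cold DHCR7 stood at -0.67 (adjusted p = 0.0642). EBP, a sterol isomerase, was lower in AT (-0.99 ± 0.23) and in cold (-0.60 ± 0.23), and FDFT1 was lower in cold (-0.79 ± 0.15) and control (-1.14 ± 0.27, and -0.72 without control 3, adjusted p = 0.192). DHCR7 and EBP, as well as NPC2 and NR1H2, were lower in BAT in 14 of 14 lambs. LSS, which closes squalene epoxide into lanosterol, was higher in BAT in AT (1.15 ± 0.42) and in cold (1.84 ± 0.43). Its AT call was lost with median-of-ratios size factors (0.75, edgeR adjusted p = 0.0759) and without AT 4 (0.0887) or AT 5 (0.0572). HMGCS1, which makes HMG-CoA at the start of the pathway, was higher in cold (1.40 ± 0.29), while its values of 0.53 in AT (adjusted p = 0.108) and 1.24 ± 0.50 in control (adjusted p = 0.0548) missed the threshold without the lamb as a block. With the block, HMGCS1 was called in AT (0.84, adjusted p = 0.0101) and in control (1.33, adjusted p = 0.0244). HMGCS1 and LSS were higher in BAT in 13 of 14 lambs. NPC1 was higher in BAT in AT (2.06 ± 0.34) and in cold (0.81 ± 0.33, adjusted p = 0.0349, and 0.0561 with the block), and stood at -0.19 in control. The cold call of NPC1 was also lost with TMM size factors (0.62, edgeR adjusted p = 0.0753) and with all 3 controls (0.0694). Leaving out cold 1, cold 2, cold 5 or cold 6 removed it too. The block also removed the control call of NSDHL (adjusted p from 0.0455 to 0.0528) and added FDPS in cold (0.44, adjusted p = 0.0363). Without control 3, NSDHL in control was at -0.38 (adjusted p = 0.569).

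In BAT, cold and AT lambs of the same age differed in none of the 29 genes by edgeR's adjusted p, against 0.309% of 14905 tested genes called. Of the 29, 5 genes had an unadjusted edgeR p under 0.05, against 12.3% of all genes. Of these 5, 4 also had an exact permutation p under 0.05 (two-sided, 924 groupings). They were HMGCS1 and SQLE, higher in cold, and FDFT1 and TM7SF2, lower in cold, and NPC1 was the fifth. The permutation test was run for the 29 genes only, so no share of all genes stands beside its count. The log2FC of the 29 genes ran from -0.90 to 0.75, with a median of -0.02 against -0.05 for all genes.

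HMGCS1 in BAT had a lowest, median and highest normalized count of 358, 432 and 486 in AT and 521, 543 and 816 in cold, so each cold lamb lay above each AT lamb. The log2FC was 0.49 ± 0.14 (edgeR adjusted p = 0.194), and the exact permutation p of 0.00216 is the smallest that 6 lambs against 6 can give. It was the only one of the 29 genes whose cold and AT groups did not overlap, against 0.691% of all genes. SQLE, the squalene epoxidase, had 46.8, 85.9 and 130.5 in AT and 83.1, 149 and 250.0 in cold. These ranges overlapped, and the log2FC was 0.75 ± 0.28 (edgeR adjusted p = 0.311, exact permutation p = 0.0433).

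FDFT1, which commits farnesyl diphosphate to sterols, stood at 443, 657 and 807 in AT and 363, 407 and 464 in cold. The groups overlapped at the edge, and the log2FC was -0.59 ± 0.16 (edgeR adjusted p = 0.160, exact permutation p = 0.00866). TM7SF2, a sterol reductase that acts after lanosterol, stood at 105, 177 and 271 in AT and 74.1, 93.3 and 134 in cold. Its log2FC was -0.85 ± 0.23 (edgeR adjusted p = 0.142, exact permutation p = 0.00866). TM7SF2 was called by DESeq2 (adjusted p = 0.0278), which called 1.75% of all genes, and, without BAT AT 6, by edgeR (adjusted p = 0.0341). FDFT1 was also called without BAT AT 6 (adjusted p = 0.0451). NPC1 had 578, 2500.2 and 2975 in AT and 769, 1026 and 1613 in cold, with overlapping groups and a log2FC of -0.90 ± 0.35 (edgeR adjusted p = 0.322).

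None of the regulators or exporters was called between cold and AT in BAT. SREBF2 had 459, 666 and 770.4 in AT and 447, 768 and 948 in cold (log2FC 0.16 ± 0.19), and INSIG1 had 227, 628 and 883 in AT and 287, 420.4 and 923 in cold (-0.28 ± 0.32, edgeR adjusted p = 0.726). Both overlapped widely. ABCA1, the exporter that loads lipid-poor apolipoprotein, had 435, 691 and 989 in AT and 332, 582 and 918 in cold. ABCG1 had 956, 1350.0 and 2049 in AT and 1112, 1369.7 and 1702 in cold. The summed brown adipocyte markers ranged from 1543 to 18196 in AT and from 6165 to 18167 in cold, with 0 of 6 markers called, and the endothelial markers from 26269 to 36247 in AT and from 33807 to 49451 in cold. Their part in the HMGCS1 and TM7SF2 values was not tested.

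**Figure D2:**
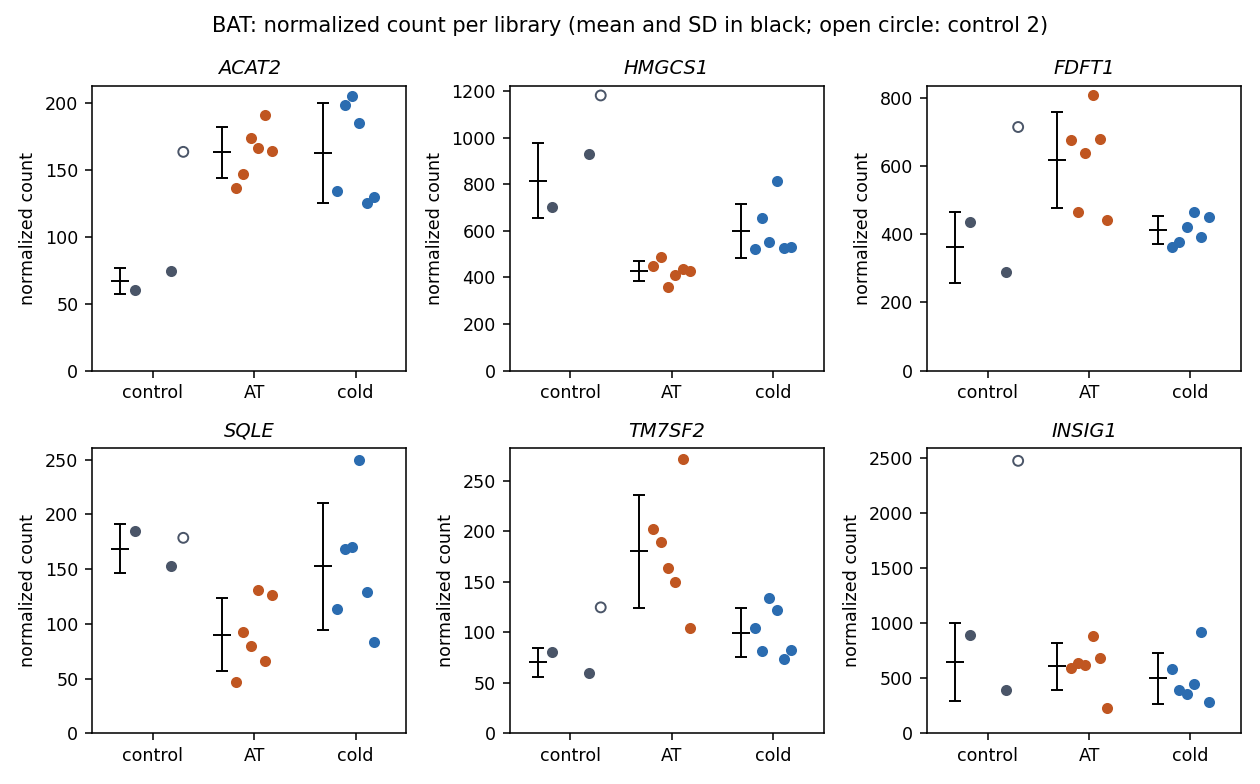
Normalized counts of 6 genes in each BAT library by treatment, with the mean and SD of the libraries in the main fit and control 2 as an open circle. HMGCS1 separated cold from AT without overlap, and ACAT2 lay higher in both treated groups than in controls 1 and 3.

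Against control, ACAT2 was upregulated in BAT of both treated groups, while HMGCS1 was downregulated and TM7SF2 upregulated in AT. The cold and AT comparisons share the same control lambs, so their values stand side by side and are not independent. ACAT2 had 60.2 and 74.1 normalized counts in controls 1 and 3, 137, 165 and 191 (lowest, median and highest) in AT, and 125, 159.5 and 205 in cold. The log2FC was 1.27 ± 0.26 in AT (edgeR adjusted p = 0.0104) and 1.27 ± 0.26 in cold (edgeR adjusted p = 0.0323). No treated lamb overlapped a control, and the exact permutation p of 0.0357 in each comparison is the smallest that 2 against 6 allows. Control 2, left out of the fit, stood at 164, inside the treated range, and with it included ACAT2 was not called in AT (0.79, adjusted p = 0.092) or in cold (0.79, adjusted p = 0.126). Without cold 2 the cold call was also lost (adjusted p = 0.0518), as both ACAT2 calls were without control 1 or control 3.

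HMGCS1 in BAT had 701 and 929.9 in controls 1 and 3 and 1181 in control 2, all above the AT range of 358 to 486. It fell by 0.93 on the log2 scale in AT (-0.93 ± 0.19, edgeR adjusted p = 0.0104, exact permutation p = 0.0357), a call lost without control 1 (adjusted p = 0.0501) or control 3 (adjusted p = 0.226). In cold its log2FC was -0.44 ± 0.20 (adjusted p = 0.248), with overlapping groups. TM7SF2 had 80.2 and 60.1 in controls 1 and 3 and 125 in control 2, against 105 to 271 in AT. Its log2FC in AT was 1.36 ± 0.35 (edgeR adjusted p = 0.0247, exact permutation p = 0.0357), and in cold 0.51 ± 0.34. The AT call was lost without control 1 (adjusted p = 0.111) or control 3 (adjusted p = 0.262), and with control 2 in place of either.

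FDFT1 and SQLE lay apart from the controls in AT without a call. FDFT1 had 436 and 288 in controls 1 and 3, 714 in control 2, and a log2FC of 0.77 ± 0.24 (edgeR adjusted p = 0.0553). It was 0.85 (adjusted p = 0.0185) with TMM size factors and 0.43 (adjusted p = 0.280) with all 3 controls. SQLE had 185 and 153 in controls 1 and 3, 179 in control 2, and a log2FC of -0.89 ± 0.38 (edgeR adjusted p = 0.148). FDFT1 thus lay above and SQLE below controls 1 and 3 in AT, with no overlap for either. ABCG1 had 1107 and 823 in controls 1 and 3 and 349 in control 2. Its log2FC was 0.56 ± 0.27 in AT (adjusted p = 0.201, and 0.99 with adjusted p = 0.0493 once control 2 was included) and 0.55 ± 0.27 in cold (adjusted p = 0.304).

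In counts, 3 of 29 genes were called in BAT in AT against control, 2 higher and 1 lower, where 9.3% of all genes were called (3.15% higher and 6.15% lower). With a log2FC of at least 1 either way 2 remained, ACAT2 and TM7SF2, against 6.07% of all genes. In cold against control 1 gene, ACAT2, was called, higher and past that fold too, against 1.48% of all genes called, 0.604% higher and 1.21% with the fold. Groups that did not overlap were found for 7 genes in AT (24.3% of all genes) and 5 in cold (24.6%). The 7 in AT were ACAT2, HMGCS1, FDFT1, SQLE, TM7SF2, MSMO1 and NSDHL, and the 5 in cold were ACAT2, DHCR7, STARD4, SOAT1 and ABCG1. The median log2FC of the 29 genes was 0.05 in AT and -0.14 in cold, against -0.03 and -0.10 for all genes. Of 5 endothelial markers 2 were lower in AT than in control, with summed levels of 26269 to 36247 against 43318 to 47902. The summed brown adipocyte markers were 24496 to 30213 in controls 1 and 3, 1543 to 18196 in AT and 6165 to 18167 in cold, without overlap and with 0 of 6 called. The part of either set of markers in the BAT values of ACAT2, HMGCS1 and TM7SF2 was not tested.

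In thyroid, none of the 29 genes was called between cold and AT by edgeR, which called 0% of all 16122 tested genes. DESeq2 called 0.0248% of all genes and none of the 29. One gene, NPC2, had an unadjusted p under 0.05, against 5.4% of all genes, and no gene had groups without overlap, against 0.192%. NPC2 had 1921, 2169 and 2732 normalized counts in AT and 2533, 2703 and 3943 in cold, with a log2FC of 0.36 ± 0.15 (edgeR adjusted p = 0.911, exact permutation p = 0.0152). STARD4 had 60.3, 80.5 and 151 in AT and 100.2, 123 and 163 in cold, with a log2FC of 0.50 ± 0.25 (edgeR adjusted p = 0.911, exact permutation p = 0.0346). Both genes, which carry cholesterol within the cell, overlapped between the groups. HMGCS1, the gene that separated cold from AT in BAT, had 374, 582 and 2027 in thyroid AT and 522, 603 and 629.6 in thyroid cold (-0.38 ± 0.36).

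Against control, NPC1, SOAT1, STARD4, ABCG1 and NSDHL were called in thyroid in AT and NPC1, SOAT1, NSDHL and SCAP in cold, each lower in the treated lambs than in controls 1 and 3. NPC1 and SOAT1 were downregulated in both treated groups. NPC1 had 3866 and 4306 in controls 1 and 3, 947, 1169 and 2163 in AT, and 986, 1304 and 2688 in cold. No treated lamb reached a control, although control 2, left out, stood at 1129. Its log2FC was -1.64 ± 0.36 in AT (edgeR adjusted p = 0.00729) and -1.33 ± 0.36 in cold (edgeR adjusted p = 0.0218), the latter not called with all 3 controls (-0.94, adjusted p = 0.112). SOAT1 had 785 and 1037 in controls 1 and 3, 295, 369.8 and 576 in AT, and 412, 457 and 647 in cold. The groups did not overlap, and control 2, at 538, lay within both treated ranges. Its log2FC was -1.20 ± 0.23 in AT (edgeR adjusted p = 0.0035) and -0.92 ± 0.23 in cold (edgeR adjusted p = 0.0143). Each of these 4 differences had an exact permutation p of 0.0357.

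STARD4 had 153 and 245 in controls 1 and 3 and 25.3 in control 2, and it was downregulated in AT (-1.15 ± 0.33, edgeR adjusted p = 0.0242, no overlap with controls 1 and 3), with -0.65 ± 0.34 in cold (adjusted p = 0.183). With all 3 controls STARD4 in AT was not called (-0.65, adjusted p = 0.353). ABCG1 had 718 and 955 in controls 1 and 3 and 966 in control 2, 204, 348 and 578 in AT and 228, 412 and 598 in cold. It was downregulated in AT (-1.14 ± 0.38, edgeR adjusted p = 0.0441), while its value of -0.98 ± 0.38 in cold missed the threshold (adjusted p = 0.0819). Neither treated group overlapped the controls. The AT call of ABCG1 was lost without AT 2, AT 4 or AT 5 (edgeR adjusted p = 0.0865, 0.0574 and 0.0759). It was also lost without a low-count filter (0.0603) and with only those 2 groups fitted (0.0852). NSDHL, an enzyme that removes a methyl group of lanosterol, had 901 and 1714 in controls 1 and 3 and 1145 in control 2, 628, 745 and 898 in AT and 705, 747 and 965 in cold. It was downregulated in AT (-0.77 ± 0.21, edgeR adjusted p = 0.0189) and in cold (-0.74 ± 0.21, edgeR adjusted p = 0.0265), the latter with overlapping groups. SCAP had 1509 and 2139 in controls 1 and 3 and 1444 in control 2, 1074, 1291 and 1583 in AT and 1087, 1274 and 1302 in cold. It was downregulated in cold (-0.57 ± 0.16, edgeR adjusted p = 0.0262), and its AT value was -0.47 ± 0.16 (adjusted p = 0.0521).

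**Figure D3:**
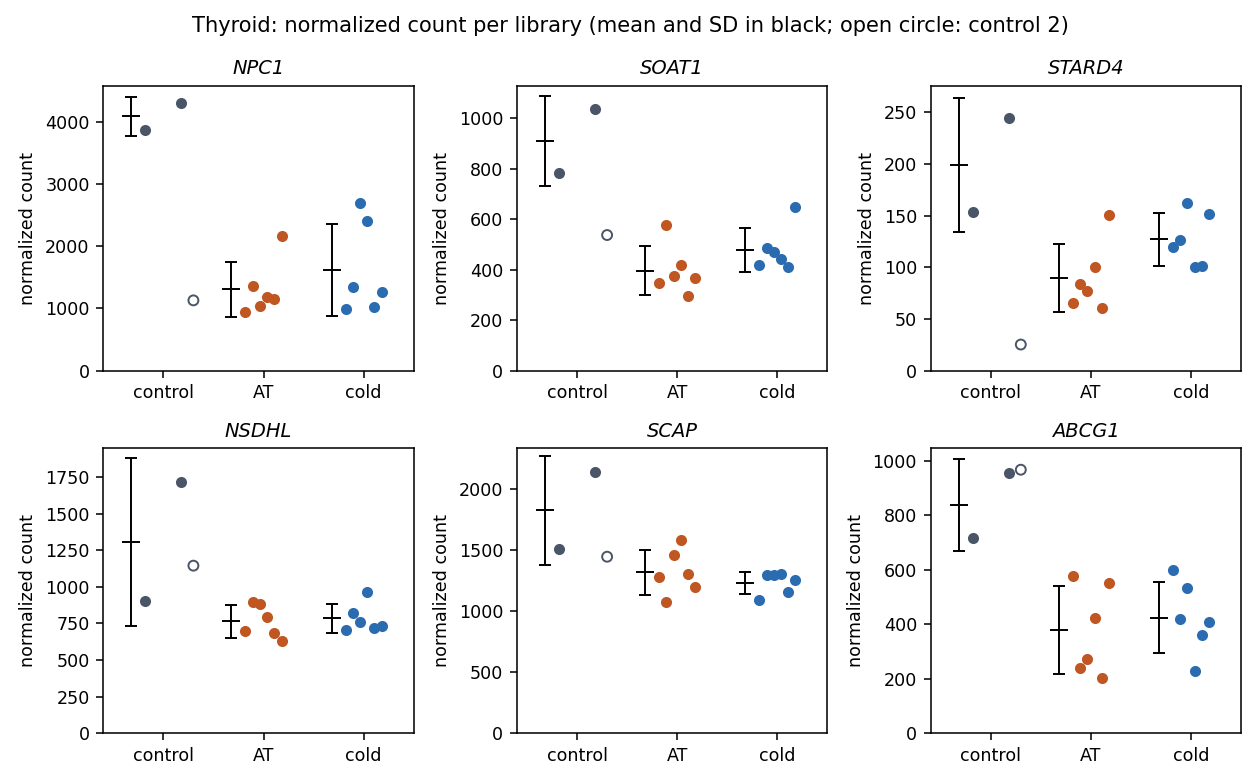
Normalized counts of 6 genes in each thyroid library by treatment, with the mean and SD of the libraries in the main fit and control 2 as an open circle. Controls 1 and 3 lay above all treated lambs for NPC1, SOAT1 and ABCG1, whereas control 2 of NPC1 (1129) lay within the treated range.

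In counts, 5 of 29 genes were called in thyroid in AT against control, all lower, where 21% of all genes were called (18.7% lower). In cold 4 were called, all lower, against 19.3% of all genes (16.9% lower). With a log2FC of at least 1 either way there were 4 in AT (7.8% of all genes) and 1 in cold, NPC1 (8.04%). In AT 7 genes and in cold 5 had groups that did not overlap, against 27.3 and 34.6% of all genes. The called shares of the list thus lay near those of all genes. The median log2FC of the list was -0.24 in AT and -0.27 in cold, and that of all genes was -0.28 in both. This shift depended on the scale: with TMM size factors the medians of all genes were 0.05 in AT and 0.02 in cold, and the calls of all genes went from 360 higher and 3022 lower to 650 higher and 758 lower in AT, and from 378 higher and 2732 lower to 628 higher and 802 lower in cold. On the TMM scale NPC1 and SOAT1 remained called in AT, and the other 3 AT calls and all 4 cold calls were lost (NPC1 in cold, edgeR adjusted p = 0.066). DESeq2 called 8 of the 29 in AT, against 25.9% of all genes.

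The thyroid calls also depended on which controls were used. Control 3 was higher than control 1 for 27 of the 29 genes, against 72.0% of 16122 genes, and with TMM size factors for 23 of 29 against 50.6%. In BAT control 3 was higher for 11 of 29, against 53.3%. Without thyroid control 3, which leaves 1 control, none of the 29 genes was called in AT or in cold, and 0.64 and 0.57% of all genes were. In that fit NPC1 was at -1.55 in AT and -1.24 in cold and SOAT1 at -0.97 and -0.69, while NSDHL was at -0.22 and -0.18. Without control 1, whose thyroid carried skeletal muscle markers, 9 were called in AT and 7 in cold, all lower, against 22.8 and 21.01% of all genes lower. With AT 3 left out as well 13 and 11 were called, all lower, against 33.0 and 30.3% of all genes lower, HMGCS1 among them in AT (-1.20, edgeR adjusted p = 0.0011). These fits also rest on 1 control, which is assumed to vary like the other groups. With control 2 in place of control 3, a choice made after the data were seen, none of the AT or cold calls above remained. STARD4 was then at -0.002 in AT and NPC1 at -0.63 in cold. The calls of that fit were DHCR7 (2.17) and EBP (1.09) higher and FDFT1 (-1.08) and NR1H2 (-0.93) lower in AT, and ACAT2 (1.07), DHCR7 (1.88) and NPC2 (1.04) higher and FDFT1 (-1.15) and NR1H2 (-0.95) lower in cold. It called 12.2% of all genes in AT and 14.4% in cold. With control 2 in place of control 1, the calls lost were NPC1 (-1.05) and STARD4 (-0.59) in AT and NPC1 (-0.74) and SOAT1 (-0.71) in cold. FDFT1 (-1.13 in AT, -1.20 in cold) and NR1H2 (-0.99, -1.02) were called lower there too, as was ABCG1 in cold (-1.18). Markers of other cells moved along with the comparison with control in thyroid. The summed macrophage markers were 2045 to 2147 in controls 1 and 3, 3357 to 6825 in AT and 3838 to 10045 in cold, with 5 higher and 1 lower of 10 markers called in AT and 6 higher in cold. The endothelial markers were 18592 to 28283 in control, 8215 to 19181 in AT and 10362 to 15049 in cold, with 2 of 5 lower in each. The follicle markers were 2870282 to 5866871 in control, 1322903 to 2416067 in AT and 1787517 to 2703919 in cold, with 3 of 7 lower in each. Their part in the values of NPC1, SOAT1 and the other genes was not tested.

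Whether BAT and thyroid responded differently was tested with tissue and treatment in 1 fit, in which no gene of the 29 was called for any pair of treatments. The background was 1.66% of 17021 genes for AT against control, 0% for cold against AT and 0.188% for cold against control. By unadjusted p under 0.05 there were 6, 4 and 2 genes, against 17.8, 7.87 and 11.7% of all genes. For cold against AT, HMGCS1 differed between the tissues by 0.87 ± 0.41 (edgeR adjusted p = 0.605), SQLE by 1.03 ± 0.48 (adjusted p = 0.601), FDFT1 by -0.53 ± 0.22 (adjusted p = 0.511) and NPC1 by -1.25 ± 0.46 (adjusted p = 0.462), positive where BAT rose more from AT to cold. For AT against control, NPC1 had the largest difference of the 29 genes at 2.25 ± 0.67 (adjusted p = 0.0747, and 0.0139 without AT 6). ABCG1 differed by 1.76 ± 0.48 (adjusted p = 0.0535, and 2.21 with adjusted p = 0.0095 once all 3 controls entered). ACAT2 differed by 1.18 ± 0.36 (adjusted p = 0.0797), and with the lamb as a block by 1.18 ± 0.25 (edgeR adjusted p = 0.0339). These values were positive, that is, higher in BAT relative to thyroid in AT than in control.

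By role, the 6 mevalonate genes had a median log2FC of -0.08 in BAT for cold against AT. Of these, 5 of 6 lay below 0, against 57.1% of all genes, and HMGCS1 was the exception. In thyroid against control the same 6 had a median of -0.27 in AT and -0.64 in cold, and of 0.06 and -0.30 with TMM size factors, with no call on either scale. Among them MVD, which makes isopentenyl diphosphate, stood at -0.72 in cold (adjusted p = 0.0659 by edgeR), PMVK at -0.97 in cold and -1.07 in AT, and FDPS at -0.76 in cold. The 7 genes from lanosterol to cholesterol ran from -0.85 to 0.54 in BAT for cold against AT (median 0.22), with TM7SF2 the lowest. The SREBP control genes SREBF2, SCAP, INSIG1 and INSIG2 lay between -0.49 and 0.07 in BAT for AT against control and between -0.37 and -0.16 for cold against control. SREBF2 in BAT had 1082 in control 1, above all treated lambs, and 715 in control 3, within their range (AT against control -0.49 ± 0.26, edgeR adjusted p = 0.247). In thyroid SREBF2 had 3144 and 6369 in controls 1 and 3, 3177, 4074 and 4721 in AT, and 3661, 3782 and 4669 in cold, so the controls lay on both sides of the treated lambs.

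INSIG1, itself a target of SREBP-2, had 895 and 393 in BAT controls 1 and 3 and 2474 in control 2, the highest BAT value. In thyroid it had 124 and 194 in controls 1 and 3, 98.2, 199 and 515 in AT, and 126, 164 and 256 in cold (cold against AT -0.39 ± 0.33, edgeR adjusted p = 0.932). The groups overlapped. SQLE in thyroid had 270.4 and 629.7 in controls 1 and 3, 115, 307 and 734 in AT, and 185, 292 and 348 in cold (cold against AT -0.29 ± 0.35, adjusted p = 0.943), again with overlap. Of the genes called in thyroid, SOAT1 in BAT had 155 and 181 in controls 1 and 3, 99.3, 131 and 160.4 in AT and 107, 125 and 144 in cold, with a log2FC of -0.43 ± 0.21 for cold against control (adjusted p = 0.300), and SCAP in BAT had 643 and 552 in the controls, 441 to 999 in AT and 443 to 618 in cold. NSDHL in BAT had 271 and 328 in controls 1 and 3, above the AT range of 159 to 269.6. Of the genes called in BAT, ACAT2 in thyroid had 631 and 992 in controls 1 and 3, 664, 896 and 1069 in AT and 779.9, 915 and 1465 in cold, and TM7SF2 in thyroid had 175 and 267, 213 to 981 and 166 to 593. Both overlapped between the groups.

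The 4 genes of transport and esterification had thyroid medians against control of -1.17 in AT (3 of 4 called) and -0.79 in cold (2 of 4 called). Of all genes, 21 and 19.3% were called, with a median of -0.28 in both. With TMM size factors the 4 had -0.83 (2 of 4) and -0.47 (0 of 4), against 8.73 and 8.87% of all genes and medians of 0.05 and 0.02. With all 3 controls they had -0.82 (2 of 4) and -0.43 (1 of 4), against 16.3 and 17.5% of all genes and medians of -0.21 and -0.23. In BAT the same 4 genes had medians of -0.05 and -0.37 with no call. The 5 LXR and efflux genes had BAT medians of 0.25 in AT and 0.04 in cold. NR1H3 had 1939 and 1861 in BAT controls 1 and 3, 1188 to 3056 in AT and 1569.9 to 2768 in cold, and ABCA1 in thyroid had 1374 and 581 in controls 1 and 3, 703 to 2262 in AT and 1109 to 2637 in cold (cold against control 0.77 ± 0.47, edgeR adjusted p = 0.262). For NR1H3 both controls lay within the treated ranges, and for ABCA1 control 3 lay below them. In BAT, ABCA1 had 501 and 623 in controls 1 and 3 and 2354 in control 2, above every treated lamb. NR1H3 in thyroid had 1952 and 2003 in controls 1 and 3, 1081, 1812 and 2252 in AT, and 1362, 1687 and 1979.5 in cold (cold against control -0.23 ± 0.25, adjusted p = 0.531).

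**Figure D4:**
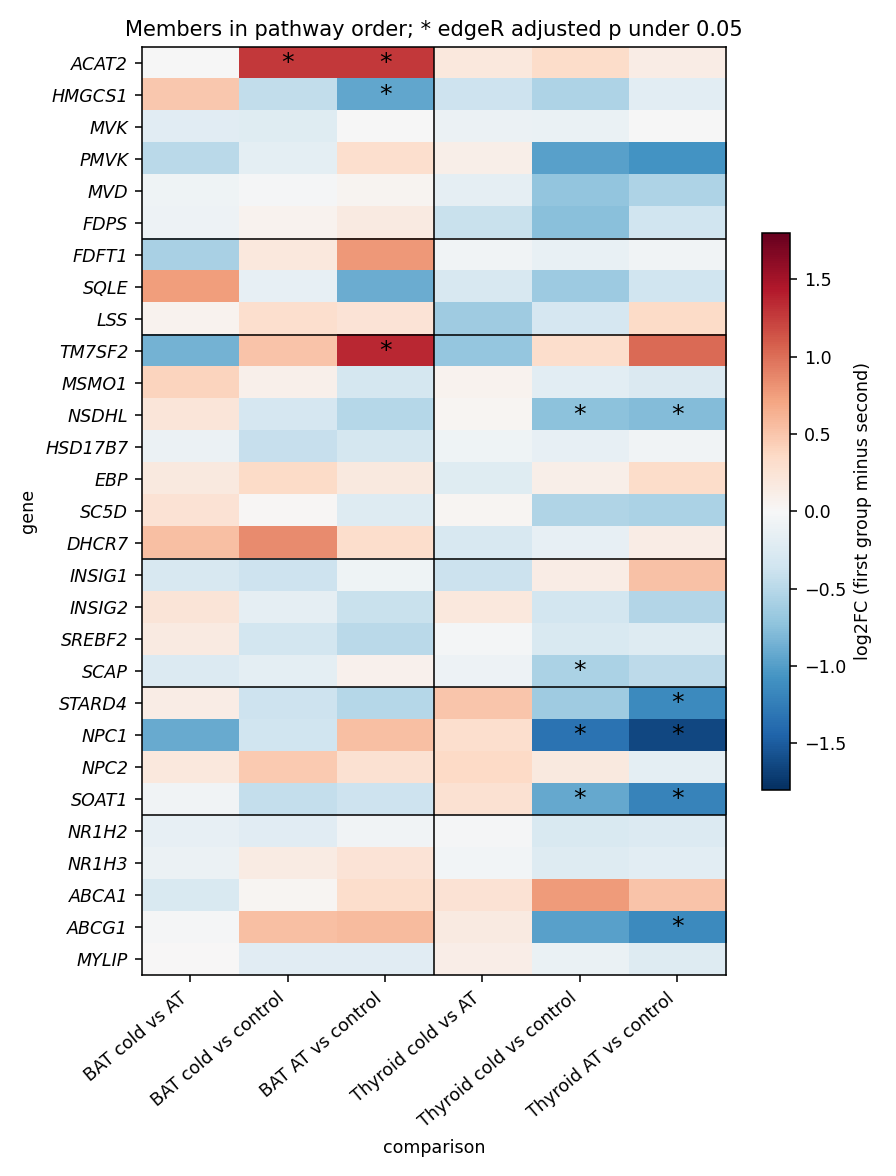
Log2 fold change of the 29 genes, ordered by role, in 6 comparisons (cold against AT, cold against control and AT against control in each tissue), with an asterisk where the edgeR adjusted p was under 0.05. Asterisks stand in none of the cold against AT columns, in 1 and 3 cells of the BAT comparisons with control, and in 4 and 5 cells of the thyroid ones.

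Other genes of the pathway came from a list of 50, of which 44 had a row. In BAT, 0 of 41 tested were called by edgeR for cold against AT, against 0.309% of all genes. At an unadjusted p under 0.05 there were 7, against 12.3% of all genes. All 10 genes of fatty acid synthesis, targets of the related factor SREBP-1, had a log2FC below 0 for cold against AT in BAT (median -0.37, and -0.35 with TMM size factors), with none called. Of all genes, 57.1% lay below 0 in this comparison, and 53.0% with TMM size factors. The 10 values came from the same lambs and are not independent. In AT against control 4 of 41 were called, against 9.3% of all genes. NUS1, a subunit of the enzyme that makes dolichol from the same isoprenoid precursor, was at -1.14 ± 0.17 (edgeR adjusted p = 0.0021), and ERLIN1, which takes part in the degradation of sterol-regulated proteins, was at -1.10 ± 0.22 (adjusted p = 0.0082). LPCAT3, an LXR target that remodels phospholipids, was at -1.0 ± 0.22 (adjusted p = 0.0138), and LIPA, the lysosomal acid lipase, at 1.60 ± 0.40 (adjusted p = 0.0226). In cold against control ERLIN1 (-0.99) and NUS1 (-0.75) were called, 2 of 41 against 1.48% of all genes.

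In thyroid, none of 43 tested was called for cold against AT, against 0% of all genes. At an unadjusted p under 0.05 there were 2, against 5.4% of all genes. In AT against control 15 of 43 were called, 14 lower and 1 higher, with a median log2FC of -0.56 against -0.28 for all genes, and 21% of all genes were called (18.7% lower). In cold against control 14 were called, all lower, with a median of -0.44, against 19.3% of all genes called (16.9% lower). With TMM size factors 5 were called in AT, 4 of them lower, and 6 in cold, all lower, with medians of -0.21 and -0.18, against 8.73 and 8.87% of all genes called. The higher one was SOAT2, an isoenzyme of SOAT1 named here after its value was seen, at 1.66 ± 0.56 (edgeR adjusted p = 0.0483). LPCAT3 was at -2.0 ± 0.34 in AT (adjusted p = 0.0024) and -2.0 ± 0.34 in cold (adjusted p = 0.0029), and ERLIN1 at -1.03 ± 0.19 and -1.09 ± 0.19. SYVN1, the ubiquitin ligase also known as HRD1, was at -1.43 ± 0.33 and -1.46 ± 0.33. Malic enzyme ME1, which supplies NADPH for lipid synthesis, was at -1.76 ± 0.51 and -1.99 ± 0.50, ACSS2, which makes acetyl-CoA from acetate, at -1.63 ± 0.35 in cold, and NUS1 at -1.27 ± 0.21 in AT. NUS1, LPCAT3 and ERLIN1 were thus called lower than control in AT in both tissues. The row LOC101108851 was at 0.78 ± 0.67 in BAT for AT against control (adjusted p = 0.495) and was higher in BAT than in thyroid in AT (1.29 ± 0.36, adjusted p = 0.003).

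Genes driven by SREBP-2 could rise and fall together from lamb to lamb, and 10 relations were tested over the 12 treated lambs on deviations from the treatment means, with permutation tests of 100000 draws. None passed after adjustment, with a lowest adjusted p of 0.265. The highest was HMGCS1 with INSIG1 in thyroid (Pearson's r = 0.77, permutation p = 0.0559, Spearman's rho = 0.28), at r = 0.69 without the 2 lambs farthest from the median. HMGCS1 with SQLE had r = 0.74 in thyroid (permutation p = 0.087, rho = 0.45) and r = 0.66 without those 2 lambs, and in BAT r = 0.46 (permutation p = 0.159, rho = 0.31). SQLE in BAT against SQLE in thyroid of the same lambs had r = 0.55 (permutation p = 0.0767, rho = 0.59), which fell to 0.03 without 2 lambs. With TMM size factors the same relation had r = 0.50, and 0.47 without 2 lambs. The 2 lambs were chosen by distance from the median of SQLE in BAT and need not be the same on both scales.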

How the data were processed

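RNA from perirenal BAT and thyroid of 15 lambs was extracted with TRIzol, selected with oligo(dT) and sequenced as paired-end reads on a BGISEQ-500. The authors trimmed reads with Trimmomatic 0.39, mapped them to Oar_rambouillet_v1.0 with STAR 2.7.7a, and deposited counts per gene from featureCounts (Subread 2.0.0), with multimapping reads counted, so genes with near-identical copies are uncertain. The strand setting is not given in the sources used here. Normalized counts are deposited counts divided by size factors from ACTB, RPL19 and HUWE1, following the study's choice of reference genes (0.537 to 1.84 in BAT, 0.741 to 1.21 in thyroid, 0.347 to 1.93 on the scale common to both). The reference genes moved against each other on this scale, though none was called. In BAT for AT against control, ACTB was at -0.67 ± 0.21 (edgeR adjusted p = 0.0611) and RPL19 at 0.31 ± 0.19. Between BAT and thyroid in control, ACTB was at 0.54 ± 0.24 (edgeR adjusted p = 0.0804) and RPL19 at -0.38 ± 0.18 (adjusted p = 0.0969). Genes reaching 10 reads in 10 or more libraries were tested with edgeR 4.0.16 in R 4.3.3 (quasi-likelihood, robust, Benjamini-Hochberg), per tissue, and in 1 fit for tissue comparisons. A gene was called at an adjusted p under 0.05. DESeq2 1.42.0, TMM, other control sets and leaving out each library were alternatives. Control 2 was left out of the main tests, following the study. The method was also run on simulated counts in which the reference genes were held nearly constant, so that run could not test shifts in them.

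Replicate numbers follow accession order within a group, and the same number in both tissues is the same lamb by the labels. Deviations from group means correlated between the tissues of a lamb from -0.0027 (AT 3) to 0.371 (cold 1) over 14403 genes. No pair of libraries in a group agreed within sampling noise (chi-square over its degrees of freedom was at least 57.8 for BAT and 36.9 for thyroid). The genes and lists were chosen with earlier results of these data known. Values are given for the genes called within a tissue (at most 12 per comparison) and for HMGCS1, SQLE, INSIG1, SREBF2, ABCA1 and NR1H3, and of other pathway genes for at most 5 per comparison called with a log2FC of at least 1. Others, FDFT1 and NPC2 among them, were chosen after their values were seen. Gene length is the Length column of the deposited table. No sequence or coordinate is given, since the genome build of the files was not used here.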

Additional observations from a re-analysis of the deposited data

Results flagged for a closer look

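In 56 groups of 6 libraries checked with Dixon's test, 6 held a library far from the others. The test's rate of about 1 in 20 assumes independent groups with a normal spread. These were untransformed counts and 1 library recurred among the 6, so they cannot be set against that rate. All lay in thyroid and were the highest of their group. In AT 3, HMGCS1 was at 2027 normalized counts against 605 in the next library (gap over range 0.860), INSIG1 at 515 against 202 (0.752) and TM7SF2 at 981 against 467 (0.669), and this is the thyroid library with the highest skeletal muscle markers. TM7SF2 in cold 4 was at 593 against 264 (0.771). NPC1 in AT 6 was at 2163 against 1366 (0.656), and SOAT1 in cold 6 at 647 against 488 (0.677). The part of the muscle markers in the AT 3 values was not tested.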

How the results depend on the processing

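Numbers of the 29 genes called changed as follows, and the cause was not tested beyond what each setting removes. The settings with control 2 in place of another control, all 3 controls with TMM, and AT 3 left out with control 1 were chosen after seeing the data. In BAT, AT against control gave 1 with control 2 for control 3 (3 in the report), and cold against AT gave 1 with DESeq2 (0). Cold against control (1) gave 0 with all 3 controls and 2 with control 2 for control 1. Those 2 were ABCG1 (1.32) and HMGCS1 (-0.75), while ACAT2 was not called (0.54, edgeR adjusted p = 0.312). With control 2 for control 3, ACAT2 was not called in cold either (0.62, edgeR adjusted p = 0.260). INSIG1 was called there (-1.71, edgeR adjusted p = 0.0296), against 7.77% of all genes. Of all genes, 9.78% were called in AT with control 2 for control 3. The share was 1.75% for cold against AT with DESeq2 and 6.14% for cold against control with all 3 controls. In thyroid, AT against control (5) gave 8 with DESeq2, 2 with TMM, 2 with all 3 controls and TMM, 2 with median-of-ratios size factors, 2 with only those 2 groups fitted, and 13 without AT 3 and control 1. The exact permutation test of thyroid AT against control gave 2 genes with TMM (5), and its share of all genes was not computed. Cold against control (4) gave 0 with TMM (8.87% of all genes), 0 with median-of-ratios size factors (8.79%) and 1 with a log2FC of at least 1 (8.04%). For the tissue difference (0), AT against control gave 1 with all 3 controls (4.62% of all genes) and 1 with the replicate block (1.41%). Cold against control gave 1 with all 3 controls (0.539% of all genes). No direction of a called gene reversed. The ranges that follow, from leaving out 1 library at a time, stand without the share of all genes called in each fit. That share also changed between settings, so the ranges describe no trait of these genes alone. Leaving out 1 library at a time gave 0 to 4 in BAT AT against control, 0 to 2 in BAT cold against AT, 0 to 1 in BAT cold against control, 0 to 11 in thyroid AT against control, 0 to 0 in thyroid cold against AT and 0 to 7 in thyroid cold against control. Between the tissues it gave 11 to 14 in AT, 12 to 15 in cold and 5 to 7 in control, and for the tissue difference 0 to 2 in AT against control and 0 to 0 in the others.

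With the replicate block, which pairs the tissues of a lamb, 15 genes were called between the tissues in AT, 15 in cold and 10 in control. Of all genes, 65.8% were called with the block in AT, 66.0% in cold and 39.6% in control. With 2 controls against 6 lambs, the exact permutation test cannot go below p = 0.0357. Of the alternative values of single called genes, 551 kept their direction and call and 128 kept the direction only. Low counts limit the precision for PMVK, STARD4 and DHCR7 in BAT.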
